A study of Mus musculus with 6 samples.

Results

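The genes described here carry symbols made of Mrpl or Mrps followed by a number. Mrpl stands for the large and Mrps for the small subunit of the mitochondrial ribosome. Membership and subunit were taken from the symbol alone, and the place of each protein in the ribosome was not checked. The rule took every such row of the deposited mouse count table and left out 5 pseudogene rows, whose symbols carry the suffix -ps. It gave 77 genes of 46095 rows, of which 76 had enough reads to be tested and 1, Mrpl40, did not. RNA was sequenced from 6 mouse hearts. In the 3 STAT3cKO hearts, numbered 3, 6 and 91, Stat3, a transcription factor gene, had been deleted in cardiomyocytes, and the 3 other hearts, numbered 1, 3 and 4, were wild type. The design text names pathways tied to heart function as the question. The labels name no Cre line, age, sex or litter. They leave unsaid whether the libraries are from different animals, and if they are not, a p-value covers only technical spread among the 6 samples.

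Mitochondria carry their own genome, which encodes core subunits of the respiratory chain and of ATP synthase. These few proteins are made inside the organelle by the mitochondrial ribosome, whose RNAs come from the mitochondrial genome and whose proteins are all made in the cytosol from nuclear genes and imported. Cardiac muscle is among the tissues richest in mitochondria, and defects in mitochondrial ribosomal proteins are a known cause of inherited cardiomyopathy.

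Deposited totals lay between 15416877 and 18264052 counts per heart. Levels are given as CPM, which are counts scaled to a common library size, after TMM scaling for library composition. Stat3 itself had 52.9, 63.8 and 59.6 CPM in STAT3cKO hearts 3, 6 and 91, against 99.7, 85.8 and 97.5 CPM in wild-type hearts 1, 3 and 4, which gave a fold change of -0.68 on the log2 scale and an edgeR adjusted p of 0.000677. Summed marker levels also differed between the groups. Endothelial markers summed to 983 to 1103 CPM in STAT3cKO hearts against 1457 to 1653 CPM in wild-type hearts, with 7 of 10 lower. Smooth muscle and pericyte markers summed to 928 to 1214 CPM in STAT3cKO hearts against 1649 to 1741 CPM in wild-type hearts, with 6 of 10 lower, and macrophage markers to 300.4 to 430.4 CPM in STAT3cKO hearts, overlapping 410.1 to 520.0 CPM in wild-type hearts, with 7 of 10 lower. Cardiomyocyte markers summed to 53850 to 60950 CPM in STAT3cKO hearts against 46620 to 50510 CPM in wild-type hearts, with 3 of 10 higher and 1 lower. Red blood cell markers summed to 335 to 686 CPM in STAT3cKO hearts against 90.9 to 159.5 CPM in wild-type hearts, with 4 of 5 tested higher. Fibroblast markers, at 3649 to 4601 CPM in STAT3cKO hearts and 2824 to 4210 CPM in wild-type hearts, overlapped, with 1 of 10 higher and 2 lower. Over all genes tested, 13.2% were higher and 12.6% lower. With the offset for transcript length and GC content described below, these shares were 10.1% and 7.39%. Under it no red blood cell marker passed the test, though all 5 tested kept log2 fold changes of 1.16 to 1.77 (edgeR adjusted p of 0.0549 to 0.156). With the same offset, 6 endothelial, 3 smooth muscle and pericyte and 7 macrophage markers were lower. Of the cardiomyocyte markers 2 were higher and none lower, and of the fibroblast markers 1 was higher and 1 lower. No marker in any of these lists was at 0 throughout, and the part of these shifts in the results below was not tested. In whole hearts, fewer cells of a type and less RNA per cell cannot be told apart.

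Mrps23, a small-subunit protein found in mitochondrial but not bacterial ribosomes, stood apart from all other members. It had 93.4, 87.5 and 96.1 CPM in STAT3cKO hearts 3, 6 and 91, against 2.01, 2.33 and 5.65 CPM in wild-type hearts 1, 3 and 4. The groups were far apart, and wild-type heart 4 was the highest of the wild-type hearts. The means were 92.3 ± 4.39 CPM in STAT3cKO hearts and 3.33 ± 2.02 CPM in wild-type hearts (SD, n = 3 each), a 27.7-fold difference (log2 fold change 4.79 ± 0.35 by its standard error, SE, here and below, edgeR quasi-likelihood adjusted p = 0.000677). Without wild-type heart 4 the log2 fold change was 5.41. Per kilobase of transcript its mean level was 65.8 CPM in STAT3cKO hearts, rank 14 of the 77 members, and 2.37 CPM in wild-type hearts, rank 75. Mrps23 was the only tested member that differed by at least 2-fold.

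Mrps23 lies on chromosome 11, at chr11:88204388-88211507 on the plus strand (GENCODE M21, GRCm38). Its RefSeq span starts further upstream, at 88194106, and so reaches into the end of Cuedc1 at 88194140, whereas the GENCODE exons of Mrps23 overlap no other gene. Of the 8 genes tested within 500 kb, Mrps23 included, 5 were higher in STAT3cKO hearts. Besides Mrps23 these were Srsf1 (log2 fold change 3.86), Vezf1 (3.62), Cuedc1 (4.68) and Gm38534. Gm38534 had 7.57, 7.21 and 6.79 CPM in STAT3cKO hearts 3, 6 and 91, against 0.103 CPM in wild-type heart 1 and no count in wild-type hearts 3 and 4, so no fold is given. Cuedc1 had 44.4, 41.0 and 44.5 CPM in STAT3cKO hearts 3, 6 and 91, against 1.44, 2.03 and 1.59 CPM in wild-type hearts 1, 3 and 4. Mks1 (0.11) and Dynll2 (-0.21), on the far side of Srsf1, did not pass the test, and Msi2 was lower (-0.41, adjusted p = 0.0202). The other 9 members on chromosome 11 lay outside that window and had log2 fold changes of -0.06 to 0.42, with Mrpl12, Mrpl27, Mrpl55 and Mrps24 higher.

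The RefSeq window upstream of Mrps23, at chr11:88204138-88204387 (GRCm38.p6, plus strand), is shown because this gene changed most. It is the 250 bases before the start used by GENCODE, in lower case throughout since none of the letter motifs described further on occurs in it.
Mrps23: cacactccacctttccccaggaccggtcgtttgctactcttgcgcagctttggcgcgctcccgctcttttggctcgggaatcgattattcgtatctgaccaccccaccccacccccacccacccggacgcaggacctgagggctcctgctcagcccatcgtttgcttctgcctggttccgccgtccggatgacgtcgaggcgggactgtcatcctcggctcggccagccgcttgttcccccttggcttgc

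The remaining members changed far less and mostly in one direction. Of the 76 tested members, 37 were higher in STAT3cKO hearts, 1 was lower and 38 did not pass an adjusted p of 0.05 (edgeR quasi-likelihood test with Benjamini-Hochberg adjustment over 14484 genes). Over all genes tested, 13.2% were higher and 12.6% were lower. Without Mrps23 the counts were 36 higher and 1 lower of 75. The median log2 fold change was 0.31 over the tested members and 0.30 without Mrps23, against 0.00 over all genes. The 36 higher members other than Mrps23 had log2 fold changes of 0.27 to 0.79, or 1.21- to 1.73-fold, with a median of 0.43. The fold change was positive in 63 members and negative in 13.

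By values in single hearts, all 3 STAT3cKO hearts were above all 3 wild-type hearts in 47 of the 76 members and below them in 2 (Mrps2 and Mrps34), while the groups overlapped in 27. Over all genes, 21.5% did not overlap with STAT3cKO higher and 21.5% did not overlap with STAT3cKO lower. The count of higher members depended on single hearts. It was 23 without wild-type heart 3 and between 25 and 35 without each of the other hearts, and 21 of the 38 called members kept the call in all 6 of these fits.

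**Figure D1:**
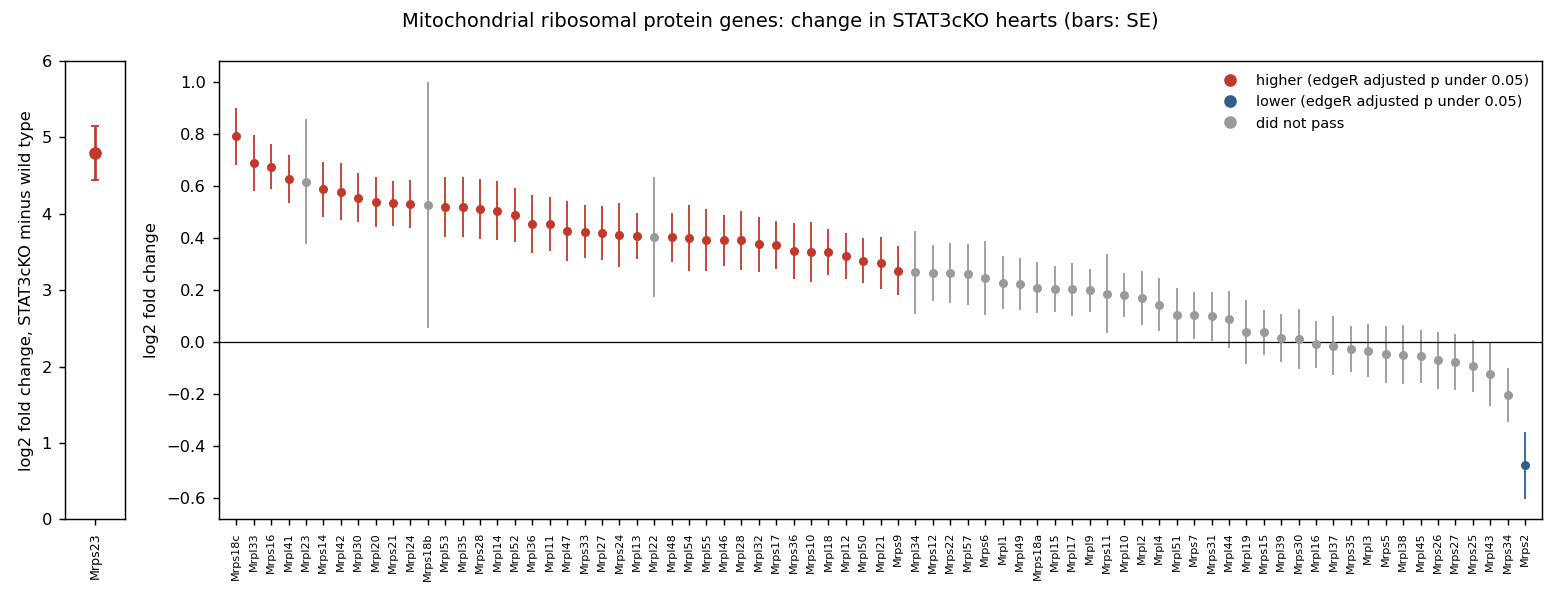
Log2 fold change (STAT3cKO minus wild type) of the 76 tested members, ordered by size, with bars for the standard error and Mrps23 on an axis of its own. Red points are the 37 higher members, the blue point is Mrps2, and grey points are the 38 that did not pass the test.

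Large-subunit and small-subunit genes, sorted by symbol alone, both held many higher members. Of 47 large-subunit genes, 25 were higher and none lower, with a median log2 fold change of 0.35. Of 29 small-subunit genes, 12 were higher and 1 lower, with a median of 0.26. Over all genes 13.2% were higher and 12.6% lower, and the difference between the subunits was not tested.

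All members but Mrps23 together summed to 4224, 4099 and 3836 CPM in STAT3cKO hearts 3, 6 and 91, against 3485, 3166 and 3266 CPM in wild-type hearts 1, 3 and 4. The lowest STAT3cKO heart, 91, was above the highest wild-type heart, 1. The means were 4053 ± 198 CPM in STAT3cKO hearts and 3306 ± 163 CPM in wild-type hearts (SD, n = 3 each). The large-subunit genes summed to 2886 ± 150 CPM in STAT3cKO hearts against 2315 ± 128 CPM in wild-type hearts, and the small-subunit genes without Mrps23 to 1167 ± 48.4 CPM in STAT3cKO hearts against 990.5 ± 35.5 CPM in wild-type hearts. As a share of all raw counts, the members including Mrps23 held 0.410, 0.381 and 0.402% in STAT3cKO hearts against 0.371, 0.329 and 0.333% in wild-type hearts, also without overlap. The 5 pseudogene rows held 82, 93 and 128 counts in all in STAT3cKO hearts and 116, 77 and 56 in wild-type hearts, and these overlapped.

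**Figure D2:**
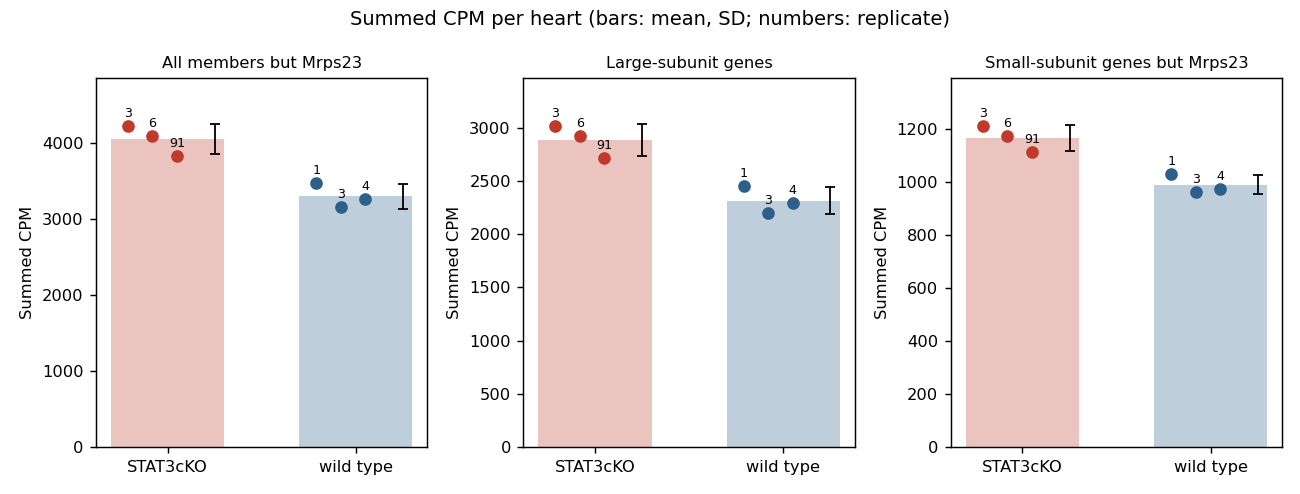
Summed CPM in each heart for all members but Mrps23, for large-subunit genes and for small-subunit genes but Mrps23; bars are group means, whiskers SD, and numbers name the hearts. Every STAT3cKO heart lies above every wild-type heart in all 3 panels.

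In level per kilobase of transcript the members spanned a wide range, with a median of 31.0 CPM per kb in STAT3cKO hearts and 25.8 in wild-type hearts. Mrpl42 was highest, at 507 ± 56.0 CPM per kb in STAT3cKO hearts and 339 ± 33.9 in wild-type hearts. Mrps21 followed at 232 ± 12.7 in STAT3cKO hearts against 160.0 ± 8.34 in wild-type hearts, and then Mrpl12, part of the stalk of the large subunit that recruits translation factors, at 137 ± 8.09 in STAT3cKO hearts against 109 ± 3.28 in wild-type hearts (SD, n = 3 each). These 3 held the same order in both groups and lay further apart than their spread. The lowest members in wild-type hearts were Mrpl40, at 0.447 ± 0.505 CPM per kb in STAT3cKO hearts against 0.184 ± 0.0833 in wild-type hearts, Mrps18b, at 1.21 ± 0.438 in STAT3cKO hearts against 0.839 ± 0.465 in wild-type hearts, and Mrps23. Mrpl40 was too low to test and Mrps18b did not pass, and 71 of 77 members were above 10 CPM in every heart.

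The next largest increases after Mrps23 were in both subunits. Mrps18c, a small-subunit protein of the S18 family, had 40.9, 37.1 and 36.5 CPM in STAT3cKO hearts 3, 6 and 91, against 24.8, 20.4 and 20.95 CPM in wild-type hearts 1, 3 and 4 (log2 fold change 0.79 ± 0.11, edgeR adjusted p = 0.000542). Mrpl33, of the large subunit, had 61.8, 62.3 and 64.0 CPM in STAT3cKO hearts, against 44.6, 38.5 and 33.6 CPM in wild-type hearts (0.69 ± 0.11, adjusted p = 0.000977). Mrps16, a small-subunit protein with a bacterial counterpart, had 62.9, 61.0 and 59.2 CPM in STAT3cKO hearts, against 40.3, 37.5 and 37.0 CPM in wild-type hearts (0.67 ± 0.09, adjusted p = 0.000393). In these 3 genes the groups were separate, and wild-type heart 1 was the wild-type heart nearest to STAT3cKO.

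Mrpl41, of the large subunit, had 60.8, 53.1 and 53.2 CPM in STAT3cKO hearts 3, 6 and 91, against 37.1, 35.5 and 35.6 CPM in wild-type hearts 1, 3 and 4 (log2 fold change 0.63 ± 0.09, edgeR adjusted p = 0.000811). Mrps14, of the small subunit, had 50.6, 48.2 and 47.1 CPM in STAT3cKO hearts, against 36.9, 29.5 and 30.6 CPM in wild-type hearts (0.59 ± 0.11, adjusted p = 0.00217). Both genes were separate between the groups, with STAT3cKO heart 3 the highest of all. Mrpl42, the most abundant member, had 371, 344 and 297 CPM in STAT3cKO hearts, against 251, 207 and 221 CPM in wild-type hearts (0.58 ± 0.11, adjusted p = 0.00295). Mrpl30, of the large subunit, had 176, 160.2 and 157 CPM in STAT3cKO hearts, against 124, 106 and 106 CPM in wild-type hearts (0.56 ± 0.10, adjusted p = 0.00166). Again no wild-type heart reached a STAT3cKO heart, and heart 1 was the highest of the wild type.

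The single decrease was in Mrps2, a small-subunit protein with a bacterial counterpart. It had 24.97, 25.4 and 18.2 CPM in STAT3cKO hearts 3, 6 and 91, against 33.4, 31.0 and 30.8 CPM in wild-type hearts 1, 3 and 4 (log2 fold change -0.47 ± 0.13, edgeR adjusted p = 0.0174). STAT3cKO heart 91 was the lowest by a wide margin. Without that heart the adjusted p was 0.0554 and the log2 fold change -0.32, and without wild-type heart 1 the adjusted p was 0.0629. The 38 members that did not pass had log2 fold changes of -0.20 (Mrps34) to 0.62 (Mrpl23). Mrpl23 was low, at 3.48, 3.12 and 3.12 CPM in STAT3cKO hearts against 2.37, 2.03 and 1.92 CPM in wild-type hearts, and its adjusted p was 0.0785.

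**Figure D3:**
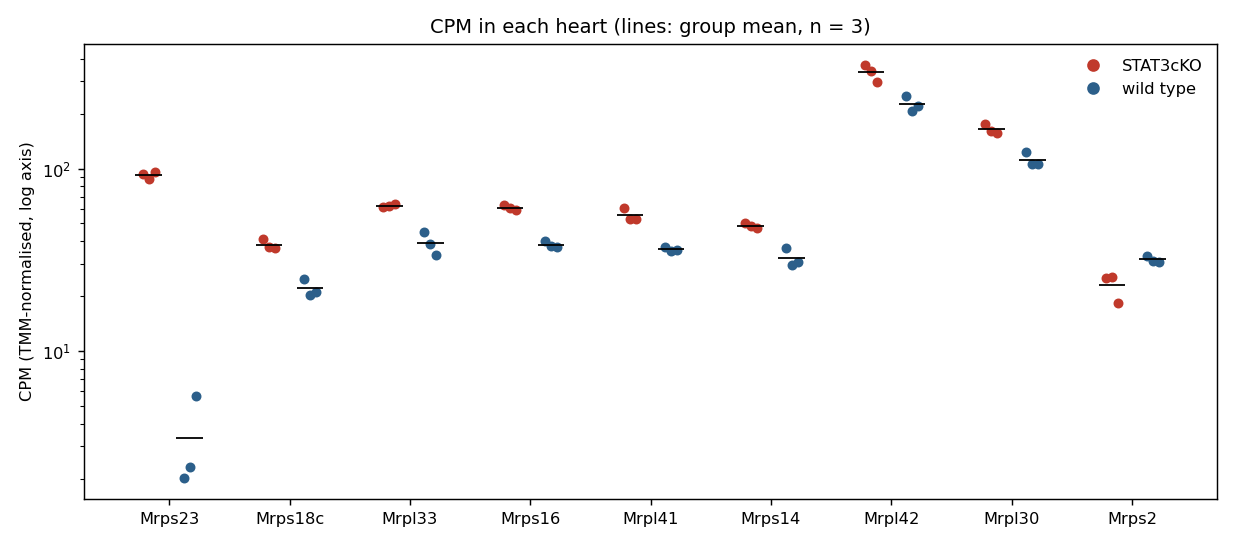
CPM on a log axis in each heart for the 8 members with the largest increases and for Mrps2, with lines at the group means (n = 3 each). STAT3cKO hearts are to the left of wild-type hearts for each gene; the groups do not overlap for any of the 9, and Mrps23 differs by more than the rest.

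Transcript length moved with the change in all genes, and members of this family are short. The longest protein-coding GENCODE transcript of a member was 463 to 7300 nt long with a median of 1316 nt, against a median of 3062 nt over 13892 tested genes with a length. Spearman's rho of length with fold change was -0.46 across the 76 members and -0.46 across all genes, given as a description since genes share libraries and are not independent replicates. Per doubling of length, a gene's deviation from its mean over hearts changed by -0.11, -0.09 and -0.12 on the log2 scale in STAT3cKO hearts 3, 6 and 91, against 0.05, 0.11 and 0.15 in wild-type hearts 1, 3 and 4. Short transcripts were thus relatively higher in every STAT3cKO heart and lower in every wild-type heart.

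Members were therefore set beside other genes of similar length. Under 1000 nt, 16 of 24 members were higher, against 38.7% of all genes, but their median log2 fold change of 0.44 was below the 0.48 of all genes that short. From 1000 to 2000 nt, 12 of 28 members were higher (11 of 27 without Mrps23), against 21.7%, with medians of 0.24 and 0.19. Over 2000 nt, 9 of 24 members were higher and 1 lower, against 7.81% of all genes higher and 17% lower, with medians of 0.20 and -0.10. These bins take the longest protein-coding transcript of each member. By the median length over a gene's transcripts, most of these 24 members were under 2000 nt, as was Mrps17 (859 nt against 5061 nt). Others stayed above it, as did Mrpl1 (3431 nt against 3556 nt). No bins were made by median length. Neither here nor in the counts above were members and all genes matched by expression level.

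The counts were then tested with an offset that removed each heart's trend on length and GC content, estimated over all genes. Of 76 members, 14 were higher, 3 were lower and 59 did not pass, against 10.1% higher and 7.39% lower over all genes. Without Mrps23 the counts were 13 higher and 3 lower. The median log2 fold change of the members was 0.09, against 0.02 over all genes. The members' trend with length turned, with a Spearman's rho of 0.38 between length and offset fold change. Under 1000 nt, 1 of 24 members was higher with the offset, against 7.97% of all genes. From 1000 to 2000 nt it was 3 of 28, against 8.42%, and over 2000 nt it was 10 of 24, against 11.1%. These bins again took the longest protein-coding transcript of each member. Of the 37 higher calls, 25 were lost. Those 25 genes had a median length of 923 nt, and 22 of them still had a positive log2 fold change, while Mrpl33, Mrpl41 and Mrpl42 were among the calls lost. By subunit, 9 large-subunit genes were higher and none lower, and 5 small-subunit genes were higher and 3 lower. Leaving out hearts moved this count as well. It was 7 without STAT3cKO heart 3 and 8 without wild-type heart 3, and between 10 and 14 without each of the others.

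The length assigned to a gene decided part of this result. With the median length over a gene's transcripts in place of the longest protein-coding one, 26 members were higher and 1 (Mrps34) was lower, against 12.3% and 11.2% of all genes, and the members' median log2 fold change was 0.22. With scaling by library size alone and no length term, 19 members were higher and 1 lower, against 7.66% and 18.7% of all genes. That scaling put the median of all genes at -0.11 and the median of the members at 0.19.

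**Figure D4:**
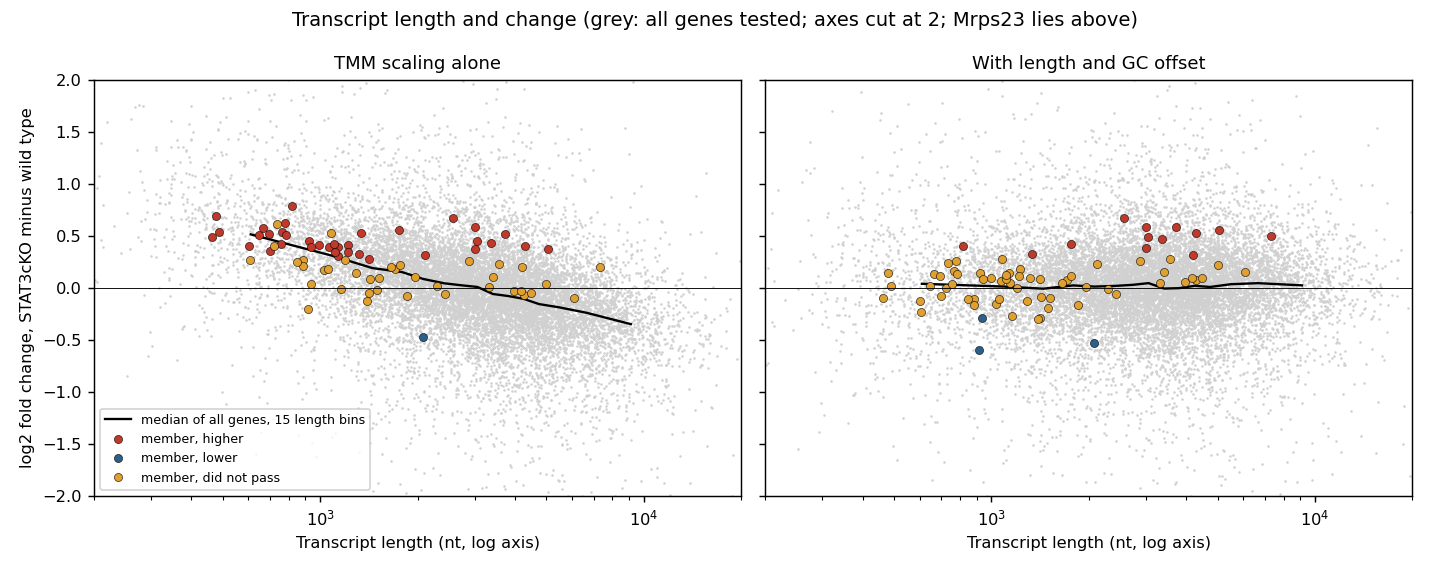
Log2 fold change (STAT3cKO minus wild type) against transcript length on a log axis, with TMM scaling alone on the left and with the length and GC offset on the right; grey points are all genes, the black line their median in 15 bins of length, coloured points the members without Mrps23. On the left the line falls with length, and members over 2000 nt have a median of 0.20 against -0.10 for all genes that long. On the right, over all lengths, 13 of the members plotted are higher and 3 lower. The length of a member is that of its longest protein-coding transcript.

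Both fits called 13 members in the same direction, Mrps2 lower and 12 higher. The 12 were Mrps23, Mrps18c, Mrps16, Mrps14, Mrps17, Mrpl11, Mrpl24, Mrpl30, Mrpl32, Mrpl35, Mrpl47 and Mrpl48, with lengths of 820 to 5061 nt and a median of 3006 nt. All but Mrpl30 were also higher under every length offset tried. With the length and GC offset, Mrps23 was higher by 4.61 on the log2 scale (edgeR adjusted p = 0.00245), Mrps16 by 0.67 (adjusted p = 0.000487), Mrps14 by 0.59 (adjusted p = 0.00552), Mrpl30 by 0.42 (adjusted p = 0.011) and Mrps18c by 0.40 (adjusted p = 0.0187). Mrps2 was lower, at -0.53 (adjusted p = 0.0159), but with the median-length offset its adjusted p was 0.0706.

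Values in single hearts are given here for the rest of this set. Mrpl48, of the large subunit, had 47.7, 42.0 and 46.8 CPM in STAT3cKO hearts 3, 6 and 91, against 33.4, 34.5 and 35.4 CPM in wild-type hearts 1, 3 and 4 (log2 fold change 0.40 ± 0.09, and 0.52 with the offset). Mrps17, a small-subunit protein with the longest transcript of this set, had 51.5, 47.5 and 50.4 CPM in STAT3cKO hearts, against 38.0, 36.2 and 41.0 CPM in wild-type hearts (0.37 ± 0.09, and 0.55 with the offset). Mrpl35, of the large subunit, had 53.4, 44.6 and 46.0 CPM in STAT3cKO hearts, against 38.1, 29.4 and 32.9 CPM in wild-type hearts (0.52 ± 0.12, and 0.58 with the offset). No wild-type heart overlapped a STAT3cKO heart in these 3 genes. The length and GC offset, which took the longest protein-coding transcript, raised each fold change. With the median-length offset each was instead lower than without an offset, at 0.34 for Mrpl48, 0.31 for Mrps17 and 0.41 for Mrpl35.

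Mrpl11, which sits at the base of the large-subunit stalk, had 44.2, 51.2 and 47.4 CPM in STAT3cKO hearts 3, 6 and 91, against 37.6, 31.0 and 35.7 CPM in wild-type hearts 1, 3 and 4 (log2 fold change 0.45 ± 0.10, and 0.49 with the offset). Mrpl47, of the large subunit, had 24.4, 24.9 and 20.8 CPM in STAT3cKO hearts, against 16.8, 16.7 and 18.5 CPM in wild-type hearts (0.43 ± 0.11, and 0.47 with the offset). Mrpl32, a large-subunit protein that is cut by a protease of the inner membrane before assembly, had 34.7, 34.8 and 29.9 CPM in STAT3cKO hearts, against 25.3, 24.1 and 27.1 CPM in wild-type hearts (0.38 ± 0.10, and 0.39 with the offset). STAT3cKO heart 91 was the lowest of its group in Mrpl47 and Mrpl32 and still above every wild-type heart. Mrpl24, of the large subunit, had 75.5, 67.3 and 73.4 CPM in STAT3cKO hearts, against 50.6, 46.4 and 52.7 CPM in wild-type hearts (0.53 ± 0.09, and 0.32 with the offset), again without overlap.

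Members outside this set that were called only with the offset were Mrpl17, Mrpl15, Mrps34 and Mrps15. Mrpl17, the member with the longest transcript, had 39.3, 35.3 and 33.9 CPM in STAT3cKO hearts 3, 6 and 91, against 34.1, 30.9 and 29.3 CPM in wild-type hearts 1, 3 and 4 (log2 fold change 0.20, and 0.50 with the offset, edgeR adjusted p = 0.0123). Mrpl15 had a log2 fold change of 0.20, and 0.32 with the offset (adjusted p = 0.0253). Mrps34 had 42.4, 35.5 and 42.1 CPM in STAT3cKO hearts, against 49.5, 42.9 and 45.9 CPM in wild-type hearts (-0.20, and -0.60 with the offset, adjusted p = 0.0016). Mrps15 had values of 47.6 to 50.8 CPM over all 6 hearts, the groups overlapping, with a log2 fold change of 0.04, and -0.29 with the offset (adjusted p = 0.0372). For Mrpl17 the groups overlapped as well, while for Mrps34 the STAT3cKO hearts were all lower. With the median-length offset Mrps34 kept its call (-0.36, edgeR adjusted p = 0.0179). Mrpl17 (0.15, adjusted p = 0.361), Mrpl15 (0.22, adjusted p = 0.0964) and Mrps15 (-0.03, adjusted p = 0.84) did not pass with that offset.

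Counts of some members are uncertain, since 32 of the 77 share exon bases with another annotated gene and the strand setting of the counting is not given in the sources used here. Mrps34 shares 63.4% of its exon bases with Mapk8ip3 on the opposite strand and 37.0% with Nme3 on the same strand. Also on the opposite strand, Mrps25 shares 69.8% with Nr2c2 and Mrpl24 26.3% with Rrnad1. On the same strand, Mrpl53 shares 88.0% with Gm42688 and Mrps18c 23.2% with Gm43511. Of the 44 tested members with no such overlap, 22 were higher and 1 lower, against 13.2% and 12.6% of all genes, with a median log2 fold change of 0.33. With the length and GC offset, 10 of these 44 were higher and 2 lower, against 10.1% and 7.39%.

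Several members lie head to head with a neighbour on the other strand, with starts less than 1000 bases apart. Of 23 such pairs, 19 had a neighbour and member that were both tested. The neighbour was higher in 5 and lower in none, against 13.2% higher and 12.6% lower over all genes. Of 8 pairs with the member higher, the neighbour was higher in 2. These were Psma2, a proteasome subunit next to Mrpl32 (log2 fold change 0.48), and Ndufs6, a complex I subunit next to Mrpl36 (0.44). Of 11 pairs with the member not higher, the neighbour was higher in 3, which were Fau, Ptcd2 and Gga3.

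Promoter windows from RefSeq (GRCm38.p6, 250 bases before to 50 after each start) were matched by symbol for 68 members and searched on both strands for the letters of common binding motifs. The letters of NRF1, a regulator of nuclear genes for mitochondria (GCGCATGC), were in 8 members, or 11.8%, against 5.61% of 10350 tested genes with a window. Those of GABP (CCGGAAGT), which has the same role, were in 12, or 17.6%, against 8.5%, and those of YY1 (AAGATGGCG) in 8, or 11.8%, against 3.38%. Letters of SP factors (GGGGCGGGG) were in 19.1% against 24.0%, the E-box (CACGTG) in 7.35% against 11.5%, and the TATA box (TATAAA) in 7.35% against 9.16%. No member held the letters of ERR (TCAAGGTCA), which were in 0.338% of tested genes.

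Between the 34 higher members with a window and the other 34, NRF1 letters were in 2 higher and 6 other members, GABP letters in 6 of each, and YY1 letters in 4 of each. SP letters were in 3 higher and 10 other members, and TATA letters in 4 higher and 1 other, with no test made. The STAT letters (TTCCNGGAA) were in 2 members, Mrpl30 and Mrpl50, both higher, which is 2.94% of members against 1.47% of tested genes. STAT and GABP letters can share bases, but none of the matches shown here do. A match is a description of the sequence and was not tested as a binding site.

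The matches in Mrpl30 and Mrpl50 are shown because STAT3 is the deleted gene, and those in Mrps18c, Mrpl32 and Mrpl35 as examples of GABP, NRF1 and YY1 letters in members that were higher under every length offset. Each is given 5′ to 3′ on the strand of the gene with 10 bases on either side of the match (of the GABP letters in Mrps18c), and capitals mark motif letters (STAT in Mrpl30 and Mrpl50, an E-box followed by GABP in Mrps18c, 1 of several NRF1 matches in Mrpl32, and YY1 in Mrpl35). They lie at chr1:37890356-37890384 and chr1:37890446-37890474 on the plus strand, chr4:49521140-49521168 on the minus strand, chr5:100798592-100798619 on the plus strand, chr13:14613086-14613113 on the minus strand and chr6:71823743-71823771 on the minus strand.
Mrpl30, first match: cccactgcgcTTCCAGGAAgcgcacgcgt
Mrpl30, second match: aaaaaaacctTTCCCGGAAccaaagaacc
Mrpl50: cgaactacatTTCCCGGAAtgcataggtc
Mrps18c: gggtCACGTGACTTCCGGcccgggaagc
Mrpl32: agaggggcctGCGCATGCtctgagcgag
Mrpl35: ggcaggctgcAAGATGGCGgcttccatct

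Mrpl50, of the large subunit, had 73.4, 74.9 and 68.3 CPM in STAT3cKO hearts 3, 6 and 91, against 55.1, 60.0 and 59.2 CPM in wild-type hearts 1, 3 and 4. The groups were separate (log2 fold change 0.31 ± 0.09, edgeR adjusted p = 0.0192), but under the offset for length and GC it was 0.23 (adjusted p = 0.0755) and no longer passed.

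Genes that act beside these ribosomal proteins included calls in both directions, to be read against the 13.2% of all genes higher and 12.6% lower, or 10.1% and 7.39% with the length and GC offset. Of 6 tested mitoribosomal proteins with other symbols, 3 were higher and none lower, with a median log2 fold change of 0.32. These were Chchd1 (79.7 ± 5.70 CPM in STAT3cKO hearts against 49.6 ± 4.21 CPM in wild-type hearts, SD, n = 3 each, log2 fold change 0.68) and Aurkaip1 (69.9 ± 1.70 in STAT3cKO against 48.4 ± 3.43 CPM in wild type, 0.53), both of the small subunit, and Ict1 (47.7 ± 2.19 in STAT3cKO against 34.8 ± 3.14 CPM in wild type, 0.45), a release factor built into the large subunit. With the length and GC offset, 2 of the 6 were higher, Ict1 and Dap3, while Chchd1 (log2 fold change 0.22, edgeR adjusted p = 0.102) and Aurkaip1 (0.25, adjusted p = 0.0611) did not pass.

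Of 27 tested factors that assemble the mitochondrial ribosome, 2 were higher and 1 lower, with a median of 0.13. Malsu1 (log2 fold change 0.39) and Mterf3 (0.38) were higher, and Noa1, a GTPase, was lower (-0.44). Under the offset Malsu1 and Noa1 still passed, and Mterf3 did not (0.17, edgeR adjusted p = 0.266). Of 19 tested genes listed as translation factors, some of which have other roles, 3 were higher and 3 lower, with a median of -0.09. The elongation factor Gfm1 fell to 113 ± 13.2 CPM in STAT3cKO hearts, against 181 ± 9.63 CPM in wild-type hearts (-0.68, edgeR adjusted p = 0.00078). The elongation factor Tufm (-0.47) and Taco1 (-0.37), an activator of Cox1 translation, were also lower. Slirp (0.83), which helps to stabilise mitochondrial messenger RNAs, Rmnd1 (0.69) and the ribosome recycling factor Mrrf (0.36) were higher. With the length and GC offset, 3 of these 19 were higher and 5 lower, and the 6 named kept their calls.

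The list of 22 genes for charging mitochondrial transfer RNAs held aminoacyl-tRNA synthetases and the amidotransferase subunits Gatb, Gatc and Qrsl1. Fars2 (log2 fold change 0.33) was higher and Mars2 (-0.64) and Aars2 (-0.33) were lower, with a median of -0.01 over the list. Under the offset Aars2 was still lower, but Mars2 (-0.24, edgeR adjusted p = 0.331) and Fars2 (0.26, adjusted p = 0.0969) did not pass. Gatb, not called without the offset, was higher with it (0.34, edgeR adjusted p = 0.039). Of 28 genes of mitochondrial transcription and RNA processing, 4 were higher and none lower, with a median of 0.05. These were Hsd17b10 (0.54), a subunit of the mitochondrial ribonuclease P, Trmu (0.50), which modifies transfer RNAs, Tefm (0.48), a transcription elongation factor, and Ptcd2 (0.45). Under the offset 1 of the 28 was higher, Ptcd2, while Hsd17b10 (0.25, edgeR adjusted p = 0.0587), Trmu (0.35, adjusted p = 0.0685) and Tefm (0.25, adjusted p = 0.206) did not pass. Of 16 transcription factors and coactivators of nuclear genes for mitochondria, none was higher and Hcfc1 (-0.52) and Ppara (-0.42) were lower. Neither of these 2 passed with the length and GC offset, under which 2 others were higher.

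The cytosolic ribosomal proteins, whose transcripts are shorter still with a median of 906 nt, gave a reference from the other ribosome of the cell. Of 79 tested, 54 were higher and none lower, against 13.2% and 12.6% of all genes, with a median log2 fold change of 0.56. Of all genes under 1000 nt, 38.7% were higher, with a median of 0.48. With the length and GC offset 23 of the 79 were higher and 1 lower, against 10.1% and 7.39% of all genes, and their median was 0.21.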

How the data were processed

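RNA of 3 STAT3cKO and 3 wild-type mouse hearts was sequenced. Trizol extraction and Illumina library preparation are stated per the labels' protocols. HISAT2 and GRCm38 are named per the submitters' processing notes. The authors deposited raw counts per gene. The program, annotation and strand setting behind the counts, each not given in the sources used here, could move single genes.

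The main test was edgeR 4.0.16 (R 4.3.3) in its robust quasi-likelihood form, with filterByExpr at a minimum count of 10, TMM factors and Benjamini-Hochberg adjustment over all 14484 genes tested. A call is an adjusted p under 0.05. A standard error is the log2 fold change divided by the root of the F statistic. Sequencing depth and 3 hearts a group limit what can be called. The offset fit used natural splines with 5 degrees of freedom on log2 length and GC content, from GENCODE M21. Alternatives used DESeq2 1.42.0 and limma 3.58.1. Only the main edgeR fit, without an offset, was run on simulated counts, and no outcome of that run is used here. All 6 columns of the table were used.

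The members and lists were chosen with earlier results of these data known, and the motif letters during the analysis. Genes named are Mrps23, the 8 largest increases and decreases among called members, those called in both fits, the 3 highest and lowest per kilobase, and, from each other list, up to 4 with the smallest adjusted p. Other genes were named after their values were seen. These were Mrpl1, Mrpl50, Mrpl23, Mrpl17, Mrpl15, Mrps34, Mrps15, Tufm, Taco1, Dap3, Gatb, Gatc and Qrsl1. They also included the neighbours of Mrps23, other members on chromosome 11, head-to-head neighbours, members with overlaps, and those whose sign turned.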

Additional observations from a re-analysis of the deposited data

How the results depend on the processing

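No paired analysis was possible because the groups share only 1 replicate number. The 37 higher members became 19 with library size alone, 14 each with the length and GC, length-only and APPRIS offsets (the last chosen after seeing the data), and 23 to 35 when leaving out 1 heart. The 1 lower member became 3 with each of these 3 offsets and 0 to 1 without 1 heart. The median log2 fold change of 0.31 became 0.19 with library size alone, 0.0916 with the length and GC offset, 0.0894 with length only, 0.11 with APPRIS lengths and 0.22 with median lengths. The log2 ratio of summed CPM over all members, Mrps23 included, was 0.33, and 0.21 with library size alone. Under the offset, 14 higher members became 26 and 3 lower became 1 with median lengths, and 7 to 14 and 2 to 3 without 1 heart (added after seeing the data). Called members whose sign turned with the length and GC, length-only and APPRIS offsets were Mrpl52 (-0.0924, -0.0701, -0.118), Mrpl54 (-0.123, -0.0773, -0.119) and Mrps36 (-0.0779, -0.0780, -0.0632), and Mrps21 with length only (-0.00846), and none of these passed. The higher cytosolic ribosomal proteins, 54, were 22 with length only. DESeq2 size factors, upper-quartile factors, both other filters, DESeq2, limma-voom, edgeR without robust estimation and removal of mitochondrial and haemoglobin genes left 34 to 37 members higher and 1 lower. The cause of these changes was not tested.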
